A study of Rattus norvegicus with 29 samples.

Results

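The genes described here are Srebf1, which encodes the transcription factor SREBP1, and 9 genes of fatty acid and triglyceride synthesis, Acly, Acaca, Fasn, Me1, Scd, Scd2, Elovl6, Gpam and Thrsp. They were taken by name: every array probe whose gene name was one of these, or Scd1, the older name of Scd, was used. That gave 18 probes for all 10 genes, and all 10 were among the 24228 genes tested. The samples were mononuclear cells (lymphocytes and monocytes) isolated on Ficoll from saphenous vein blood of 29 male Wistar rats, and each was hybridised to 1 Agilent 2-colour array after linear RNA amplification. Rats were 6 months old and had eaten either a cafeteria diet, rich in fat and calories and offered beside chow, or chow alone (control) for 4 months, and the cafeteria rats are described as obese. They were sampled after a 14 h fast and 6 h of renewed access to food (refed), after a 14 h fast (fasted) or while eating freely (fed). The groups were cafeteria refed, cafeteria fasted, cafeteria fed, control refed and control fasted, with 5 rats each, and control fed, with 4, because 1 control sample yielded little RNA and was excluded, per the labels. Each rat gave 1 sample, so fasting and refeeding compare different rats.

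SREBP1 is the main inducer of the genes that turn surplus carbohydrate into fatty acids. In liver, insulin after a meal raises Srebf1 expression and releases SREBP1 from the membrane of the endoplasmic reticulum, and fasting reverses both. The products act in sequence: ATP-citrate lyase makes acetyl-CoA, acetyl-CoA carboxylase makes malonyl-CoA, fatty acid synthase builds palmitate with NADPH from malic enzyme and other sources, and elongase and desaturases turn palmitate into oleate before it is esterified to triglyceride.

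The values below are log2 ratios of a rat's own RNA (Cy5) to a reference pooled from all groups (Cy3), so 0 is the level of the pool. Replicate values follow the order of rat number within a group. Changes are differences of group means with their standard error after ±, from 1 limma fit over all 29 arrays. A gene was called at a Benjamini-Hochberg adjusted p under 0.05 over all 24228 genes. Means of groups carry their SD. Each gene is represented by its brightest probe.

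Markers of the labelled cell types were present. All T cell markers on the array (10 of 10), all B cell markers on it (8 of 8) and 11 of 12 monocyte markers were well above background on all 29 arrays. Markers of other cells were detected too. Of 10 erythroid and 10 neutrophil markers listed, 7 and 5 were above background on all 29 arrays, among them Ahsp, Alas2 and Slc4a1, and S100a8 and S100a9. Platelet transcripts are given by group below with Me1. Of 9 adipocyte markers on the array, Cfd and Retn were above background on 29 arrays, Fabp4 on 25, Lpl on 3, Adipoq and Plin1 on 2, Lep and Adrb3 on 1 and Cidec on 0. Of 10 hepatocyte markers, Alb and Ttr were on 29, Apoc3 on 28, Apoa2 on 26, Apoa1 on 24, Fgb on 23, Serpina1 on 22, Ahsg on 14, and Cyp2e1 and Tat on 0. Over the arrays, 53.3% to 66.7% of spots were well above background in Cy5. Image files were read in 2 runs of 14 and 15 arrays, and run 1 held 1 of 5 cafeteria refed, 1 of 5 cafeteria fasted, 4 of 5 cafeteria fed, 2 of 5 control refed, 4 of 5 control fasted and 2 of 4 control fed arrays.

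Promoters of Scd2, Srebf1 and Me1, which moved with feeding, and of Scd, which did not pass, are shown to set their upstream sequences side by side. Each runs from 250 bases before the gene start to 50 bases after it, 5′ to 3′ on the gene's strand, from RefSeq on the GRCr8 build, whose table held 7 of the 10 genes. Fasn, which also moved with feeding, had no entry there, nor had Acaca and Elovl6. Capitals mark matches, on either strand, to CCAAT (bound by NF-Y, a common partner of SREBP), to GGGCGG (the GC box, bound by Sp1), to TCACNCCAC (a form of the sterol regulatory element bound by SREBP) or to CACGTG (an E-box). On the other strand the CCAAT box reads ATTGG and the GC box CCGCCC. Scd2 (chr1:253118127-253118426, plus strand) encodes a stearoyl-CoA desaturase and was the gene most closely tied to feeding.
Scd2: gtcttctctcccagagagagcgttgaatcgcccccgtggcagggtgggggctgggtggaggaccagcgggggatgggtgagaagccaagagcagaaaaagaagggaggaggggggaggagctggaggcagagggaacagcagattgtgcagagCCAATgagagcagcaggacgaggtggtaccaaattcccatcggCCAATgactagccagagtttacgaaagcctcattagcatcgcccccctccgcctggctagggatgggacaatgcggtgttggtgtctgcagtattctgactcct
Scd (chr1:253231682-253231981, minus strand), its neighbour on the chromosome, encodes the other desaturase of the set.
Scd: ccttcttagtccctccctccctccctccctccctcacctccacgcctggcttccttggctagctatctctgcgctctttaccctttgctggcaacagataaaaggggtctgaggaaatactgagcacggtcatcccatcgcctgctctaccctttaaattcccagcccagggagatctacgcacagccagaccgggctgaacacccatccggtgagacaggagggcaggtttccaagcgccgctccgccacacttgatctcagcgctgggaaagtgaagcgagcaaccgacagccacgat
Srebf1 has a pair of starts in the table, at chr10:45529115-45529414, minus strand, and at chr10:45518961-45519260, minus strand.
Srebf1, first start: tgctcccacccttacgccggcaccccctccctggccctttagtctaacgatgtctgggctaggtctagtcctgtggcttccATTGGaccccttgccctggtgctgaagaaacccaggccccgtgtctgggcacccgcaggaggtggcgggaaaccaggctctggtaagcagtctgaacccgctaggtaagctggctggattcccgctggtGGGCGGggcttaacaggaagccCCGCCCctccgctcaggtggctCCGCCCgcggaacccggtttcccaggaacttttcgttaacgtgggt
Srebf1, second start: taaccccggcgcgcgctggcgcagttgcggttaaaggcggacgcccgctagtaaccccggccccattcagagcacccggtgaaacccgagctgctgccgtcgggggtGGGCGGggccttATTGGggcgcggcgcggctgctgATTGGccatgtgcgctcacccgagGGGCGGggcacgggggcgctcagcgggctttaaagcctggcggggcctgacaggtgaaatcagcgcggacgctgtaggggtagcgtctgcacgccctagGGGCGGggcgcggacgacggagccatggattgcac
Me1 (chr8:96540195-96540494, minus strand), the gene with the largest change, follows.
Me1: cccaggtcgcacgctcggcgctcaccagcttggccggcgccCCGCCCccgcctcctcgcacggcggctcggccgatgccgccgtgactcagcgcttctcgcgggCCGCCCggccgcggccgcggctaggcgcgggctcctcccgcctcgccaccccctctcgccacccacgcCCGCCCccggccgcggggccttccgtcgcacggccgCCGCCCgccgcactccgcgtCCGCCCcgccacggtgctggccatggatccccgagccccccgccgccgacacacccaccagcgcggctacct
Scd2 had 2 CCAAT boxes in this window, and Scd held 0 matches to any of the 4 motifs. The first Srebf1 start had 1 CCAAT box and 3 GC boxes and the second had 2 and 3, while Me1 had 5 GC boxes alone. Acly, Gpam and Thrsp, which are not printed and passed no test, each had 1 CCAAT box. Acly also had 3 GC boxes and Thrsp 1, so such matches were found in called and uncalled genes alike. Of all 33469 promoters in the table, 37.5% hold a CCAAT box, 33.1% a GC box, 6.42% the E-box and 1.12% the sterol regulatory element. The sterol regulatory element and the E-box were not found in these windows, which says only that these letters are not there.

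Scd2 was low in fasted rats of both diets and higher in refed and fed rats. Srebf1 and Fasn had their lowest means in control fasted rats and were higher after refeeding when both diets were averaged. Me1 went the other way from these lipogenic genes, with its lowest level in control refed rats and its highest in control fasted rats. The other 6 genes passed no test on their brightest probe. The plot of every rat's value shows these patterns.

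**Figure D1:**
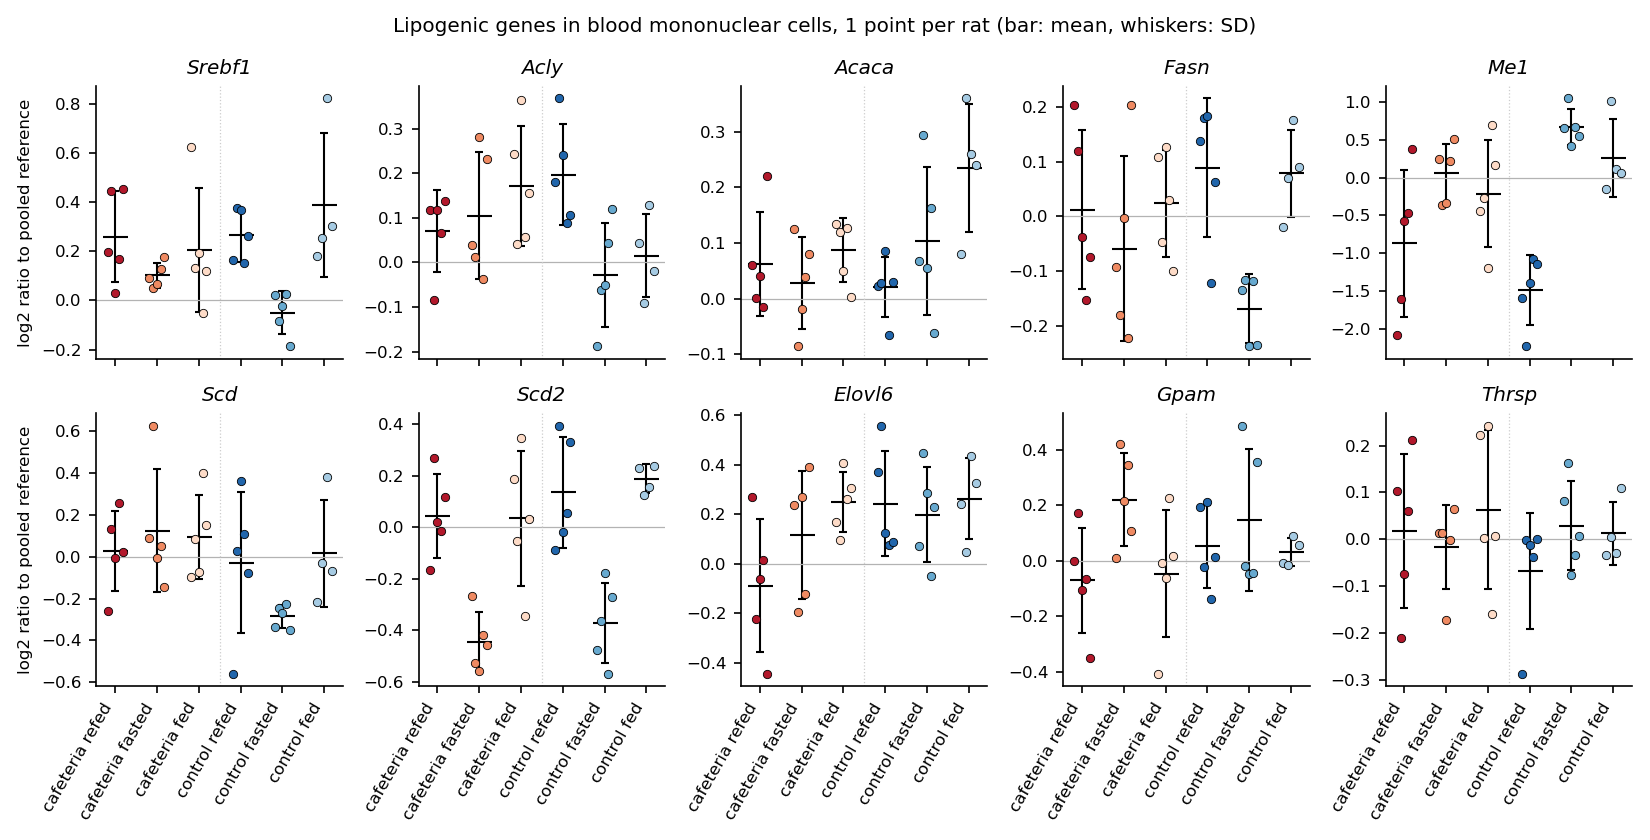
Log2 ratio to the pooled reference (y axis) of the brightest probe of each gene in 6 groups (x axis), 1 point per rat, with the group mean as a bar and the SD as whiskers (n = 5, and 4 for control fed). Scd2 lies between -0.57 and -0.18 in all 10 fasted rats, and Me1 lies between -2.23 and -1.08 in the 5 control refed rats.

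Srebf1 is the regulator of the set. Its log2 ratios were 0.20, 0.44, 0.031, 0.17 and 0.45 in cafeteria refed rats, 0.090, 0.051, 0.066, 0.13 and 0.18 in those fasted on that diet and 0.63, 0.13, 0.19, -0.049 and 0.12 in those fed. Rats on chow had 0.16, 0.38, 0.37, 0.15 and 0.26 when refed, 0.020, -0.083, -0.024, 0.026 and -0.19 when fasted and 0.18, 0.25, 0.82 and 0.30 when fed. All 5 control fasted rats lay below every control refed and every control fed rat, whereas the cafeteria fasted rats lay inside the range of the cafeteria refed rats. With the diets averaged, Srebf1 rose by 0.24 ± 0.077 in refed against fasted rats (adjusted p = 0.0410, 1.18-fold). The difference was 0.16 ± 0.11 (adjusted p = 0.565) in cafeteria rats and 0.31 ± 0.11 (adjusted p = 0.0703) in control rats. Fasted against fed rats differed by -0.10 ± 0.11 (adjusted p = 0.856) on the cafeteria diet, by -0.44 ± 0.12 (adjusted p = 0.100) on chow and by -0.27 ± 0.079 (adjusted p = 0.0511) on average, none of them called. The average refeeding call of Srebf1 ended without any 1 of 12 arrays (adjusted p up to 0.0795), and within the image runs that change was 0.22 (adjusted p = 0.512) in run 1 and 0.30 (adjusted p = 0.181) in run 2. One control fed rat (number 7, 0.82) stood well above the other 3, and without it the control difference was -0.29. In these bulk samples, less RNA per cell and fewer cells of an expressing type cannot be told apart.

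The Srebf1 result did not rest on 1 probe. The probe used lies at chr10:46462235-46462294 on the minus strand (rn4 build). A further probe, at chr10:46463470-46463986 on the same strand and spotted 10 times on each array, gave a median SD of 0.054 between its spots, against an SD of 0.16 between rats. Its log2 ratios over the 29 arrays correlated with those of the probe used (Pearson r = 0.83). On it, refed against fasted rats differed by 0.35 ± 0.10 (adjusted p = 0.0260) on chow and by 0.24 ± 0.071 (adjusted p = 0.0244) on average, with the p adjusted over all 28193 probes. Fasted against fed rats differed on it by -0.27 ± 0.073 (adjusted p = 0.0313) on average, so it passed where the brighter probe missed. Over all probes, 2.11% were called lower in that fasting comparison, and 3.07% and 5.7% were called higher in these 2 refeeding comparisons. The last Srebf1 probe was above background on 11 of 29 arrays and passed no test.

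Acly, Acaca and Fasn encode the 3 enzymes that make palmitate from citrate. Fasn, fatty acid synthase, had log2 ratios of 0.20, 0.12, -0.037, -0.15 and -0.074 in cafeteria refed rats, -0.094, -0.18, -0.0040, -0.22 and 0.20 in those fasted on that diet and 0.11, -0.047, 0.13, 0.030 and -0.10 in those fed. It had 0.14, 0.18, 0.18, -0.12 and 0.063 in control refed rats, -0.13, -0.12, -0.24, -0.12 and -0.24 in control fasted rats and -0.019, 0.070, 0.18 and 0.089 in control fed rats. The control fasted rats were all low, below all control fed rats and below 4 of the 5 control refed rats, whereas the cafeteria groups overlapped throughout. Fasn rose by 0.26 ± 0.077 with refeeding in control rats (adjusted p = 0.0317, 1.20-fold) and by 0.16 ± 0.054 on average (adjusted p = 0.0423), and the change in cafeteria rats was 0.071 ± 0.077 (adjusted p = 0.743). Fasted against fed rats differed by -0.083 ± 0.077 (adjusted p = 0.824) in cafeteria rats and -0.25 ± 0.081 (adjusted p = 0.193) in control rats. The second Fasn probe correlated with the first over the arrays (r = 0.82) and gave refeeding changes of 0.25 ± 0.089 (adjusted p = 0.0834) on chow and 0.12 ± 0.063 (adjusted p = 0.222) on average. Neither passed. The Fasn call in control rats ended without any 1 of 5 arrays (adjusted p up to 0.0869) and the average without any 1 of 12 (up to 0.0881). Within the image runs the average was 0.35 (adjusted p = 0.0484) in run 1 and 0.14 (adjusted p = 0.475) in run 2. The files give no position for the Fasn probes.

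Acly, ATP-citrate lyase, had log2 ratios of 0.12, -0.085, 0.12, 0.065 and 0.14 in cafeteria refed rats against 0.038, 0.012, 0.28, -0.037 and 0.23 in cafeteria fasted rats. On chow it had 0.18, 0.37, 0.24, 0.089 and 0.11 in refed rats and -0.19, -0.062, -0.051, 0.043 and 0.12 in fasted rats. The highest control fasted rat lay just above the lowest 2 control refed rats. The control refeeding change was 0.22 ± 0.075 (adjusted p = 0.0582), short of the threshold, and the cafeteria change was -0.035 ± 0.075 (adjusted p = 0.889). Acaca, acetyl-CoA carboxylase, ranged from -0.086 to 0.36 over all rats on the probe used, at chr10:72678945-72679004 on the plus strand (rn4). Its highest mean was in control fed rats (0.23 ± 0.12, n = 4) and its lowest in control refed rats (0.020 ± 0.054, n = 5), which differed by -0.21 ± 0.065 (adjusted p = 0.388). Its dimmer probe did not follow the one used (r = -0.047 over 29 arrays).

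Me1 encodes cytosolic malic enzyme, a source of NADPH for fatty acid synthase. Its log2 ratios were -2.08, -1.60, -0.58, -0.46 and 0.37 in cafeteria refed rats, 0.25, -0.36, -0.34, 0.22 and 0.51 in those fasted on that diet and -0.44, -0.27, -1.20, 0.69 and 0.16 in those fed. Rats on chow had -1.60, -2.23, -1.39, -1.08 and -1.15 when refed, 0.65, 1.05, 0.42, 0.67 and 0.55 when fasted and -0.16, 1.02, 0.11 and 0.059 when fed. All 5 control refed rats were below every control fasted and every control fed rat, while cafeteria refed rats spread from the level of the lowest control refed rats up to that of fasted rats. Me1 fell by 2.16 ± 0.36 with refeeding in control rats (adjusted p = 0.000860), a 4.46-fold difference with a 95% interval of -2.89 to -1.43 in log2. The cafeteria change was -0.93 ± 0.36 (adjusted p = 0.229), and the average over diets was -1.54 ± 0.25 (adjusted p = 0.000309). The difference between the diets in that response was 1.23 ± 0.50 (interaction, adjusted p = 0.641), so the responses of the 2 diets were not shown to differ. Within the image runs the average was -2.17 (adjusted p = 0.0306) in run 1 and -1.24 (adjusted p = 0.0684) in run 2. Refed against fed rats differed by -0.66 ± 0.36 (adjusted p = 1.00) on the cafeteria diet and by -1.75 ± 0.38 (adjusted p = 0.369) on chow. The second Me1 probe tracked the first (r = 0.98) and fell too, with a control change of -1.81 ± 0.32 (adjusted p = 0.00122) and an average of -1.33 ± 0.23 (adjusted p = 0.000441), where 5.95% and 7.5% of all probes were called lower.

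Me1 moved together with platelet transcripts. The mean log2 ratio of 17 platelet markers, those kept of 23 listed and 16 of them above background on all arrays, was -0.48 ± 0.77 in cafeteria refed rats (range -1.56 to 0.38), -0.016 ± 0.24 in cafeteria fasted rats (-0.38 to 0.21) and -0.15 ± 0.49 in cafeteria fed rats (-0.73 to 0.42). It was -0.79 ± 0.40 in control refed rats (-1.30 to -0.22), 0.60 ± 0.14 in control fasted rats (0.39 to 0.78) and 0.099 ± 0.54 in control fed rats (-0.35 to 0.84). Control refed and control fasted rats did not overlap in it, and Pf4, Ppbp and Gp1bb were above background on all 29 arrays while Selp was on 0. Over the 29 arrays, with group means subtracted, Me1 correlated with it at Pearson r = 0.94 and Spearman rho = 0.93 (permutation test, both adjusted p = 0.0001 over 10 genes, from the smallest p the resampling can give). The correlation was 0.90 among the 14 arrays of run 1, 0.92 among the 15 of run 2, and 0.91 without the 2 arrays farthest from the median marker level. In run 1 cafeteria refed and cafeteria fasted rats, and in run 2 cafeteria fed and control fasted rats, had 1 array each. Such an array equals its group mean, so it carries no information within its run, yet the permutations counted it. Permutation p values within a run may therefore be too small. With the marker mean added as a covariate, the control refeeding change of Me1 shrank to -0.51 (adjusted p = 0.175) and the average to -0.44 (adjusted p = 0.0419). Whether the platelet content of the samples moved Me1 was not tested.

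**Figure D2:**
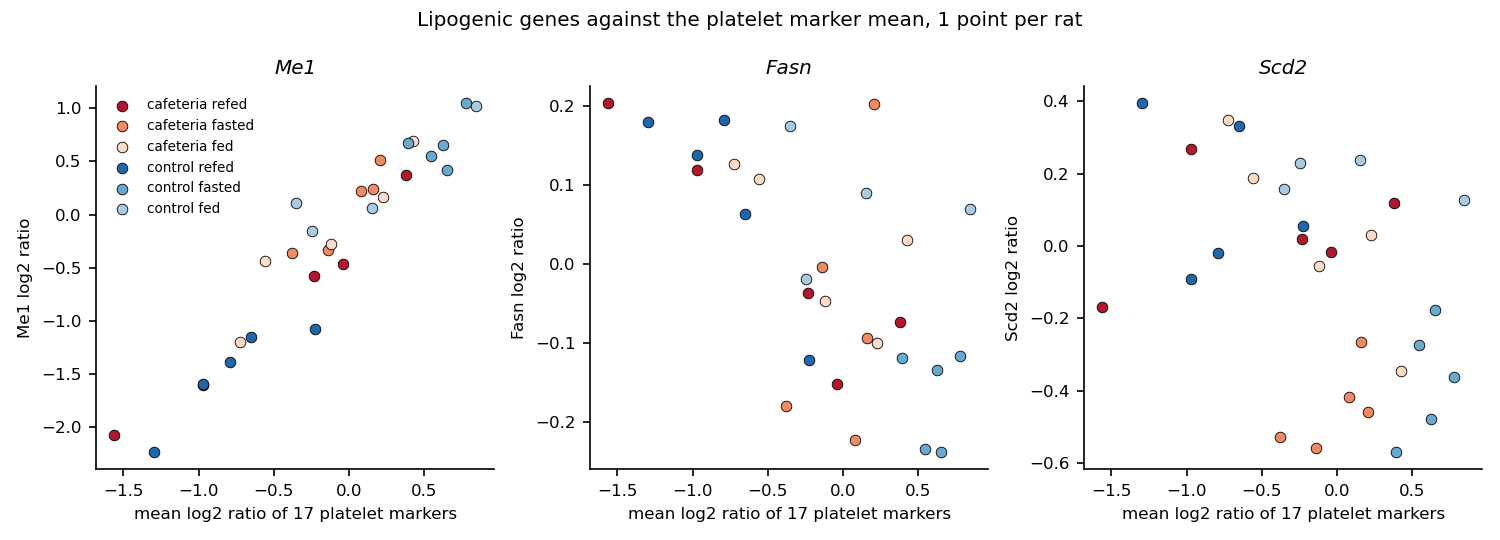
Log2 ratio of Me1, Fasn and Scd2 (y axes) against the mean log2 ratio of 17 platelet markers (x axis), 1 point per rat, coloured by group. Me1 rises with the marker mean throughout. Control refed rats span -1.30 to -0.22 of the marker mean, and its lowest value, -1.56, belongs to cafeteria refed rat 3. The fasted rats form a low band in Scd2 that spans -0.38 to 0.78 of the marker mean.

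Over all 29 arrays, with group means subtracted, Fasn was the 1 other gene of the 10 to pass with the platelet marker mean (r = -0.51, rho = -0.55, permutation test, adjusted p = 0.0231 and 0.0118). Its r was -0.53 in run 1 and -0.49 in run 2 (permutation test, adjusted p = 0.0761 and 0.0994), and its rho was -0.47 and -0.66 (adjusted p = 0.134 and 0.0299). Without the 2 farthest arrays the Fasn r was -0.40 (adjusted p = 0.0724), which no longer passed, and its rho was -0.50 (adjusted p = 0.0311), which did. Srebf1 passed without those arrays (r = -0.55, adjusted p = 0.0111, rho = -0.55, adjusted p = 0.0182), against r = -0.31 (adjusted p = 0.178) with them. In run 1 the Pearson test also passed for Srebf1 (r = -0.64, adjusted p = 0.0303), Acly (-0.82, 0.00215), Scd2 (-0.66, 0.0303) and Thrsp (-0.63, 0.0303), and of these 4 the Spearman test passed for Acly alone. In run 2 Srebf1 gave -0.53 (0.0958), Acly -0.08 (0.789) and Scd2 -0.23 (0.463). Thrsp and Gpam had opposite signs in the runs, with 0.71 (0.0122) for Thrsp in run 2, and 0.55 (0.0721) in run 1 and -0.75 (0.00740) in run 2 for Gpam. All these within-run p values may be too small, for the reason given with Me1. The covariate took the Fasn refeeding change to 0.077 (adjusted p = 0.762) on chow and 0.043 (adjusted p = 0.791) on average. It took the Srebf1 average to 0.13 (adjusted p = 0.550). On chow, refed and fasted rats did not overlap in the marker mean, so the covariate and refeeding cannot be told apart there. Whether platelet content moved Fasn or Srebf1 was not tested. Over all arrays Scd2 gave r = -0.18 (adjusted p = 0.388), and without the 2 farthest arrays r = -0.43 (adjusted p = 0.0614). Acly gave r = -0.34 (adjusted p = 0.167) and -0.44 (adjusted p = 0.0614) in the same way. The changes of Scd2 with the covariate are given below.

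Scd2 and Scd encode stearoyl-CoA desaturases, which turn saturated into monounsaturated fatty acids, and Elovl6 encodes the elongase that extends palmitate. The Scd2 log2 ratios were -0.17, 0.27, 0.018, -0.017 and 0.12 in cafeteria refed rats, -0.27, -0.53, -0.56, -0.42 and -0.46 in those fasted on that diet and 0.19, -0.054, 0.35, -0.34 and 0.032 in those fed. Rats on chow had -0.090, 0.39, -0.019, 0.055 and 0.33 when refed, -0.48, -0.36, -0.18, -0.57 and -0.27 when fasted and 0.23, 0.13, 0.16 and 0.24 when fed. In both diets every fasted rat was below every refed rat, and on chow every fasted rat was also below every fed rat. One cafeteria fed rat (number 10, -0.34) lay within the cafeteria fasted range. Scd2 fell by 0.48 ± 0.11 with fasting in cafeteria rats (adjusted p = 0.0304), by 0.56 ± 0.11 in control rats (adjusted p = 0.0444) and by 0.52 ± 0.079 on average (adjusted p = 0.000535, 1.43-fold). It rose by 0.49 ± 0.11 with refeeding in cafeteria rats (adjusted p = 0.0195), by 0.51 ± 0.11 in control rats (adjusted p = 0.00343) and by 0.50 ± 0.077 on average (adjusted p = 0.000205, 1.41-fold). The fasting and refeeding comparisons share the fasted rats, so the 2 sets of changes are not independent. Refed and fed rats differed by 0.010 ± 0.11 on the cafeteria diet (95% interval -0.21 to 0.23) and by -0.054 ± 0.11 on chow (95% interval -0.29 to 0.18).

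The Scd2 averages over both diets and the control refeeding change stayed called when any 1 of the 29 arrays was left out. The control fasting call ended without any 1 of 12 arrays (adjusted p up to 0.132), the cafeteria fasting call without any 1 of 7 (up to 0.119) and the cafeteria refeeding call without any 1 of 5 (up to 0.0605). With that marker mean added to the fit as a covariate, the fasting change was -0.47 (adjusted p = 0.0323) in cafeteria rats, -0.53 (adjusted p = 0.100) in control rats and -0.50 (adjusted p = 0.00131) on average. The refeeding change was then 0.46 (adjusted p = 0.0421) in cafeteria rats, 0.41 (adjusted p = 0.203) in control rats and 0.44 (adjusted p = 0.0205) on average, so both control calls ended. As said above, the covariate and refeeding cannot be told apart on chow. Within each image run, whose numbers of rats are small, the average fasting change was -0.61 (adjusted p = 0.203) and -0.39 (adjusted p = 0.317), and the average refeeding change was 0.45 (adjusted p = 0.222) and 0.46 (adjusted p = 0.0274).

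Scd2 had 3 probes, which gave the same direction but different sizes. The probe used lies at chr1:249370837-249370896 (plus strand, rn4). The next, at chr1:249369161-249369220, correlated with it over the arrays (r = 0.67) and changed by -0.20 ± 0.050 (adjusted p = 0.0205) with fasting on average and by 0.21 ± 0.048 (adjusted p = 0.00441) with refeeding. It also rose in cafeteria rats, by 0.29 ± 0.068 (adjusted p = 0.0296), where 0.713% of all probes were called higher. The dimmest, at chr1:249365537-249365596 (r = 0.42), changed by -0.11 ± 0.047 (adjusted p = 0.198) and 0.056 ± 0.045 (adjusted p = 0.487) on average, neither called. With the 3 probes averaged, the average fasting change was -0.28 (adjusted p = 0.000368) and the refeeding change 0.25 (adjusted p = 0.000235).

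**Figure D3:**
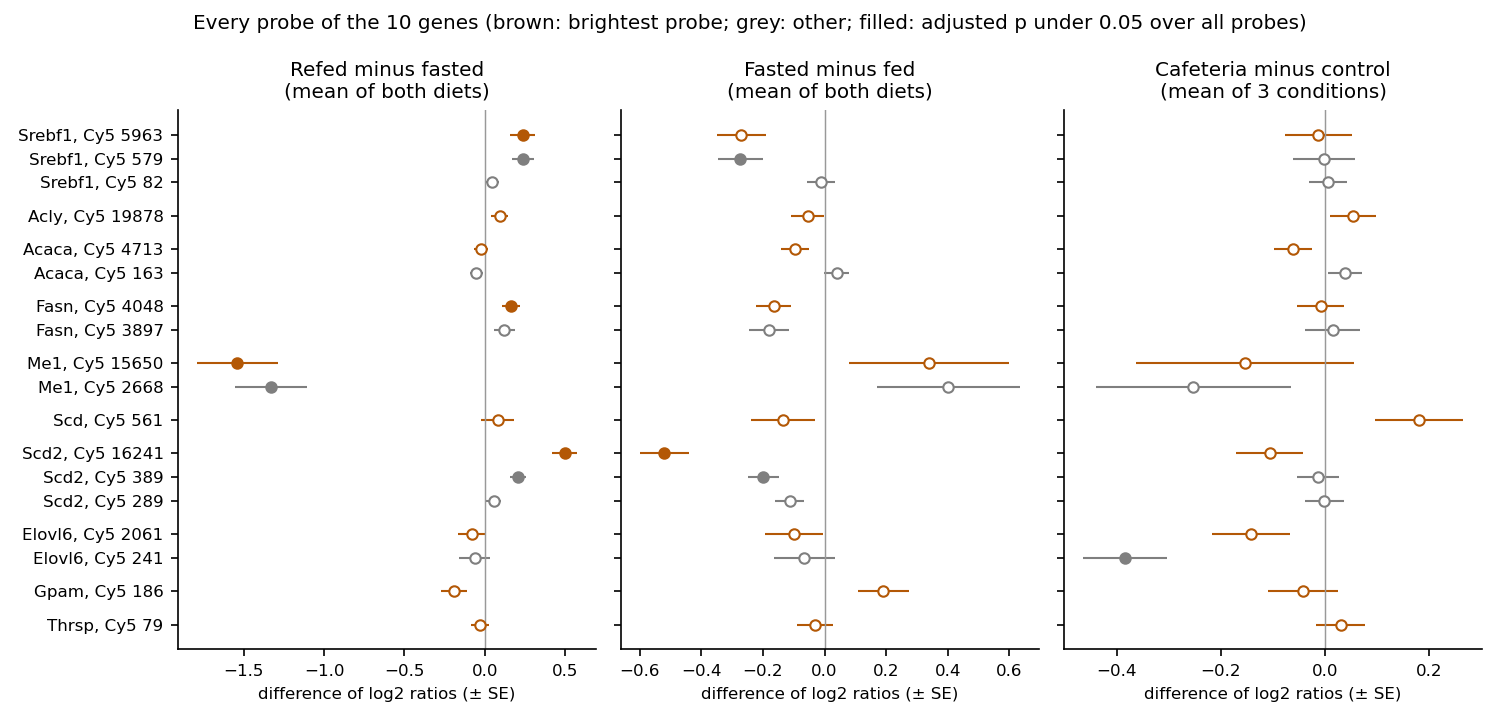
Change of every probe of the 10 genes (x axis, log2, whiskers SE) averaged over diets for refed minus fasted and fasted minus fed, and averaged over feeding conditions for cafeteria minus control, with probes ordered within a gene by their median Cy5 signal in scanner units (row labels). Both Me1 probes fall with refeeding (-1.54 and -1.33), the brighter 2 Scd2 probes rise (0.50 and 0.21), and the dimmer Elovl6 probe is lower on the cafeteria diet (-0.38) while the brighter is at -0.14.

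Scd, measured by 1 probe at chr1:249459057-249459116 (minus strand, rn4) that the array names Scd1, showed a narrow low group. Fasted rats had log2 ratios of 0.091, 0.63, -0.0053, 0.049 and -0.14 on the cafeteria diet and -0.33, -0.24, -0.27, -0.23 and -0.35 on chow. All 5 control fasted rats lay below every cafeteria fasted rat and also below every control fed rat, whose values were -0.22, -0.031, 0.38 and -0.069. In control refed rats they were -0.56, 0.027, 0.36, 0.11 and -0.078, on both sides of the fasted group. Cafeteria against control fasted rats differed by 0.41 ± 0.14 (adjusted p = 0.178), control fasted against control fed rats by -0.30 ± 0.15 (adjusted p = 0.461) and control refed against control fasted rats by 0.26 ± 0.14 (adjusted p = 0.307), none of them called.

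Elovl6 gave different answers on its 2 probes. On the brighter probe, at chr2:227054046-227054105 (plus strand, rn4), log2 ratios were 0.27, -0.22, -0.061, 0.016 and -0.44 in cafeteria refed rats and 0.37, 0.56, 0.12, 0.076 and 0.089 in control refed rats. On the dimmer probe they were -0.16, -0.21, -0.34, -0.21 and -0.83 in cafeteria refed rats against 0.63, 0.027, 0.53, 0.30 and -0.012 in control refed rats. That probe is placed at chr2:227047594-227052367, a span of 4774 bases that is longer than the probe. Cafeteria against control refed rats differed by -0.64 ± 0.14 (adjusted p = 0.0322) on the dimmer probe, where 0.323% of all probes were called lower, against -0.33 ± 0.13 (adjusted p = 0.419) on the brighter one. Over the 3 feeding conditions the diet difference was -0.38 ± 0.080 (adjusted p = 0.00384) on the dimmer probe, where 3.1% of probes were called lower, and -0.14 ± 0.075 (adjusted p = 0.379) on the brighter one. The probes correlated at r = 0.52 over the 29 arrays.

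Gpam encodes the acyltransferase that starts glycerolipid synthesis, and Thrsp encodes Spot 14, a small protein that promotes lipogenesis in liver. Gpam log2 ratios were -0.00076, 0.17, -0.11, -0.067 and -0.35 in cafeteria refed rats, 0.011, 0.42, 0.21, 0.34 and 0.11 in those fasted on that diet and -0.41, -0.0075, -0.061, 0.22 and 0.015 in those fed. Rats on chow had 0.19, -0.023, 0.21, -0.14 and 0.013 when refed, 0.49, -0.021, -0.047, -0.046 and 0.36 when fasted and -0.0073, -0.016, 0.087 and 0.056 when fed. Refed, fasted and fed rats overlapped on both diets. Its mean was highest in cafeteria fasted rats, and the refed against fasted change was -0.29 ± 0.12 (adjusted p = 0.252) on the cafeteria diet and -0.095 ± 0.12 (adjusted p = 0.693) on chow. Thrsp was above background on 12 of 29 arrays, and its group means ran from -0.068 ± 0.12 in control refed rats to 0.063 ± 0.17 in cafeteria fed rats (SD, n = 5 each). Its largest difference between 2 groups of 1 diet was in control refed against control fasted rats, at -0.097 ± 0.079 (adjusted p = 0.524), so at this signal no difference of Thrsp was detectable.

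The order of the 6 groups by mean differed between genes, and in nearly all cases neighbours in it overlapped. For Scd2 the order from high to low was control fed, control refed, cafeteria refed, cafeteria fed, control fasted and cafeteria fasted. Its one wide gap, 0.41, lay between cafeteria fed and control fasted rats and was 2.33 times the pooled SD. For Srebf1 the order was control fed, control refed, cafeteria refed, cafeteria fed, cafeteria fasted and control fasted, and each gap was under 1 pooled SD. Its last 2 groups did not overlap. For Me1 the order was control fasted, control fed, cafeteria fasted, cafeteria fed, cafeteria refed and control refed, with 2 gaps over 1 pooled SD. The largest spread of group means against the pooled SD within groups belonged to Scd2 (0.63 against 0.17) and Me1 (2.16 against 0.60), and the smallest to Thrsp (0.13 against 0.12).

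**Figure D4:**
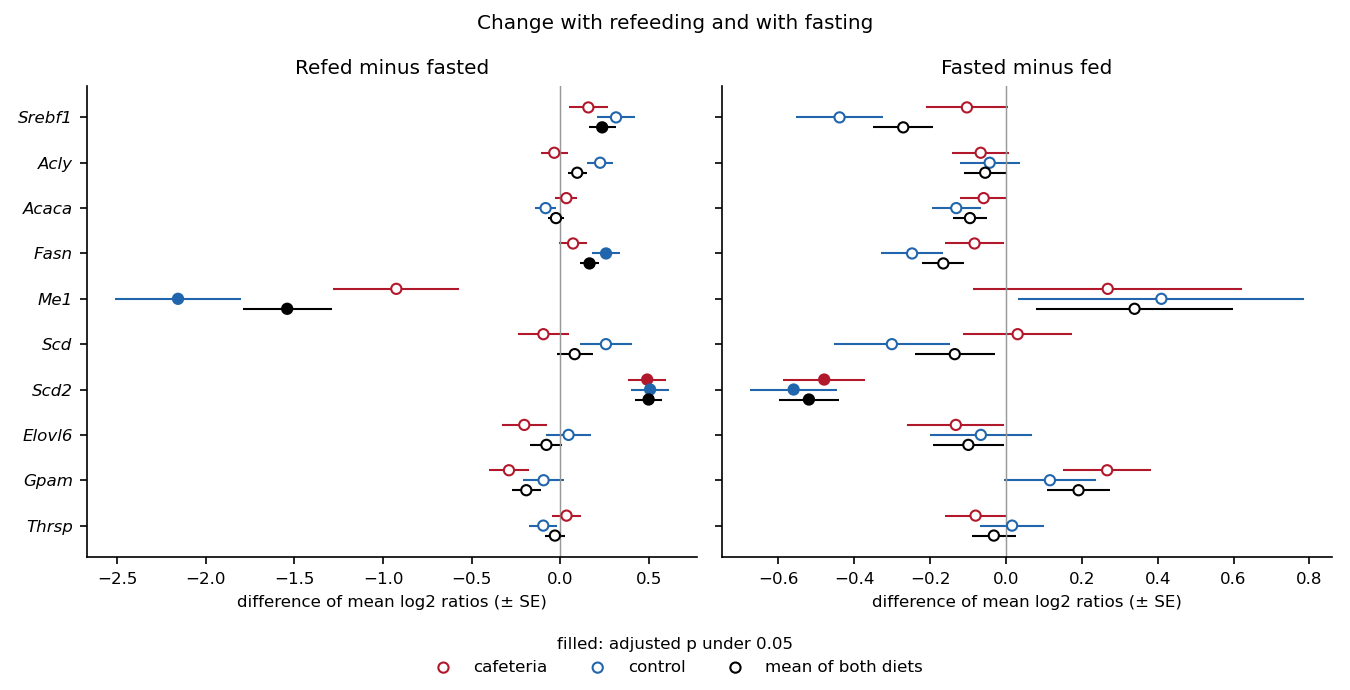
Change of each gene (x axis, difference of mean log2 ratios, whiskers SE) in refed minus fasted rats and in fasted minus fed rats, for cafeteria rats, control rats and the mean of both diets, filled where the adjusted p is under 0.05. Scd2 is filled in all 6 comparisons, at -0.48, -0.56 and -0.52 with fasting and 0.49, 0.51 and 0.50 with refeeding, and Me1 stands apart at -2.16 in control refed rats.

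Counted over the set, fasting lowered 1 of the 10 genes, Scd2, in each diet. In cafeteria rats 0.384% of all genes were called lower, and in control rats 0.103% were. Averaged over diets Scd2 was again the 1 gene called, against 2.27% of all genes called lower. In control rats 4 genes, Srebf1, Fasn, Scd and Scd2, lay wholly below the fed rats, against 2.43% of all genes, and 0 lay wholly above, against 2.31%. In cafeteria rats 0 lay wholly below and 0 wholly above, against 1.07% and 1.37% of all genes. The median change of the 10 genes was -0.073 in cafeteria rats and -0.099 in control rats, beside 0.0045 and 0.0043 over all genes.

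Refeeding raised Scd2 and lowered none of the 10 in cafeteria rats, where 0.759% of all genes were called higher. In control rats it raised 2, Scd2 and Fasn, and lowered 1, Me1, where 3.31% of all genes were called higher and 6.01% lower. Averaged over diets it raised 3, Scd2, Srebf1 and Fasn, and lowered Me1, where 5.97% of all genes were called higher and 7.53% lower. In cafeteria rats 1 gene, Scd2, lay wholly above the fasted rats, against 1.99% of all genes, and 0 lay wholly below, against 1.33%. In control rats 2 genes, Srebf1 and Scd2, lay wholly above, against 4.09%, and Me1 lay wholly below, against 6.09%. The median change of the 10 genes was -0.00051 in cafeteria rats and 0.14 in control rats, beside -0.0031 and 0.010 over all genes.

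Refed rats were not shown to differ from fed rats. Of the 10 genes, 0 were called in cafeteria rats, where 0% of all genes were, and 0 in control rats, where 0% were (limma). At an unadjusted p under 0.05 the count was 1 of 10 in cafeteria rats, where 4.26% of all genes were, and 3 of 10 in control rats, where 5.85% were. Me1 in control rats lay wholly below the fed rats, as 1.07% of all genes did.

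The cafeteria diet called 0 of the 10 genes in any feeding condition. The share of all genes called in either direction was 0.223% in refed rats, 0.83% in fasted rats, 0.00825% in fed rats and 3.25% over the 3 conditions. At an unadjusted p under 0.05 the count was 1 of 10 in each of these 4 comparisons, where the share of all genes was 8.01% in refed rats, 14.8% in fasted rats, 4.54% in fed rats and 15.2% over the 3 conditions. In fasted rats Srebf1 and Scd lay wholly above control rats, as 1.66% of all genes did. For Srebf1 that difference was 0.15 ± 0.11 (adjusted p = 0.540). Over the 3 conditions the diet difference was -0.012 ± 0.064 for Srebf1 (95% interval -0.14 to 0.12) and -0.0076 ± 0.045 for Fasn (-0.10 to 0.085). The responses to fasting and to refeeding were not shown to differ between diets by the interaction test, with 0 of 10 genes called and 0% and 0% of all genes (limma). At an unadjusted p under 0.05 these counts were 1 and 2 of 10, against 3.19% and 7.47% of all genes. The interaction was 0.34 ± 0.16 (adjusted p = 1.00) for Srebf1 with fasting and -0.26 ± 0.11 (adjusted p = 0.641) for Acly with refeeding.

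Other genes of these pathways, in 4 lists chosen with earlier results of these data known, moved in both directions. Of 17 tested genes of fatty acid synthesis, elongation and desaturation, 1 was lower with fasting on average, Acsl3, which activates long-chain fatty acids, at -0.32 ± 0.060 (adjusted p = 0.00227), where 2.27% of all genes were lower. With refeeding 1 was higher and 4 were lower on average, where 5.97% of all genes were higher and 7.53% lower. Acsl3 rose by 0.31 ± 0.058 (adjusted p = 0.000975), while Hacd4, a dehydratase of fatty acid elongation, changed by -0.69 ± 0.15 (adjusted p = 0.00284), Fads1, the delta-5 desaturase, by -0.55 ± 0.17 (adjusted p = 0.0303) and Tecr, the reductase of the last elongation step, by -0.20 ± 0.066 (adjusted p = 0.0467). On chow 3.31% of all genes were higher and 6.01% lower. There 1 of the 17 was higher, Acsl3 at 0.35 ± 0.082 (adjusted p = 0.00665), and 3 were lower, Fads1 at -0.98 ± 0.24 (adjusted p = 0.00905), Hacd4 at -0.94 ± 0.21 (adjusted p = 0.00531) and the elongase Elovl5 at -0.34 ± 0.080 (adjusted p = 0.00678). The medians of the list were 0.024 with fasting and -0.018 with refeeding on average, beside 0.0054 and 0.0024 over all genes.

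Among 32 tested genes of SREBP processing and lipogenic regulation, 3 were higher with fasting on average, where 1.84% of all genes were. They were Sik1, a kinase that represses lipogenic genes in liver, at 1.18 ± 0.31 (adjusted p = 0.0266), Irs2, an adaptor of the insulin receptor, at 0.50 ± 0.092 (adjusted p = 0.00221), and Prkaa1, a catalytic subunit of AMP-activated kinase, at 0.19 ± 0.049 (adjusted p = 0.0270). Irs2 was the 1 gene of the list higher with fasting in cafeteria rats, at 0.59 ± 0.13 (adjusted p = 0.0233), where 0.475% of all genes were. With refeeding Irs2 fell, at -0.47 ± 0.090 (adjusted p = 0.00107) on average and -0.45 ± 0.13 (adjusted p = 0.0226) on chow. Rxrb, a nuclear receptor partner, rose by 0.18 ± 0.054 (adjusted p = 0.0218) and Mtor, a nutrient-sensing kinase, by 0.11 ± 0.036 (adjusted p = 0.0449) on average. Srebf2, the relative of Srebf1 that drives sterol synthesis, rose by 0.34 ± 0.11 (adjusted p = 0.0405) on chow. With refeeding 7.53% of all genes were lower and 5.97% higher on average, and 6.01% and 3.31% on chow. The refeeding calls of this list were about as frequent as over all genes, or less. Across feeding conditions the cafeteria diet lowered 2, Ppargc1b, a coactivator of SREBP1 in liver, at -0.38 ± 0.091 (adjusted p = 0.0164) and Srebf2 at -0.24 ± 0.062 (adjusted p = 0.0252), and raised 1, Nr1h3, the liver X receptor alpha, at 0.33 ± 0.094 (adjusted p = 0.0479). Over all genes 2.46% were lower and 0.797% higher in that comparison.

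Of 15 tested genes of substrate and NADPH supply, Pdha1, a subunit of pyruvate dehydrogenase, was higher with fasting at 0.47 ± 0.12 (adjusted p = 0.0195) and lower with refeeding at -0.39 ± 0.11 (adjusted p = 0.0231) on average. Me2, the mitochondrial malic enzyme, was higher on the cafeteria diet over the 3 conditions at 0.12 ± 0.033 (adjusted p = 0.0346). Over all genes 1.84% were higher with fasting and 7.53% lower with refeeding on average, and 0.797% were higher on the cafeteria diet. Of 14 tested genes of triglyceride synthesis and lipid droplets, Lpin2, a phosphatidate phosphatase, fell with refeeding, at -0.54 ± 0.12 (adjusted p = 0.00398) on chow and -0.35 ± 0.083 (adjusted p = 0.00457) on average. Agpat4, an acyltransferase, rose with refeeding at 0.32 ± 0.091 (adjusted p = 0.0192) on average. With refeeding 6.01% of all genes were lower on chow, and 7.53% were lower and 5.97% higher on average. The refeeding calls of both lists were about as frequent as over all genes. The cafeteria diet lowered Lpin2 in fasted rats, at -0.49 ± 0.12 (adjusted p = 0.0451), where 0.726% of all genes were called lower. It also lowered Agpat5, another acyltransferase, over the 3 conditions at -0.25 ± 0.065 (adjusted p = 0.0331), where 2.46% of all genes were called lower.

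Within groups, the enzymes did not follow Srebf1 closely enough to pass a test. With group means subtracted, Fasn had the highest correlation with Srebf1 over 29 arrays (Pearson r = 0.40, Spearman rho = 0.48, permutation test, adjusted p = 0.245 and 0.0852 over 9 genes). Scd2 gave r = 0.34 and rho = 0.33 (adjusted p = 0.245 and 0.194), and 0 of 9 passed. Within run 1 and run 2, Fasn gave r = 0.45 and 0.44 (adjusted p = 0.180 and 0.468), and without the 2 arrays farthest from the median of Srebf1 it gave 0.35 (adjusted p = 0.251). Without subtracting group means, Fasn and Scd2 both gave r = 0.62 with Srebf1, a value that includes the feeding differences described above.

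The genes with the most similar profiles over the 29 arrays are given as a description, by Pearson r of log2 ratios among genes with a symbol. Me1 was closest to Gsn, Ppif and Clip2 (r = 0.97, 0.96 and 0.96). Scd2 was closest to Pars2, Zfp105 and Zfp445 (0.81, 0.80 and 0.79) and Srebf1 to Zbtb45, Plpbp and Bdh1 (0.81, 0.81 and 0.80). Acly was closest to Hnrnpk, Mta2 and Psmd1 (0.82, 0.82 and 0.80) and Elovl6 to Sytl2, Atp1b1 and Il18 (0.82, 0.81 and 0.79). Gpam was closest to Fv1, Ogdh and Arih2 (0.83, 0.79 and 0.78), Thrsp to Hmx1, Zfp428 and Nfya (0.71, 0.70 and 0.69), Scd to Wdfy4, B9d2 and Bcar3 (0.70, 0.69 and 0.69) and Acaca to Tuba4a, Taldo1 and Cltc (0.65, 0.64 and 0.64).

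**Figure D5:**
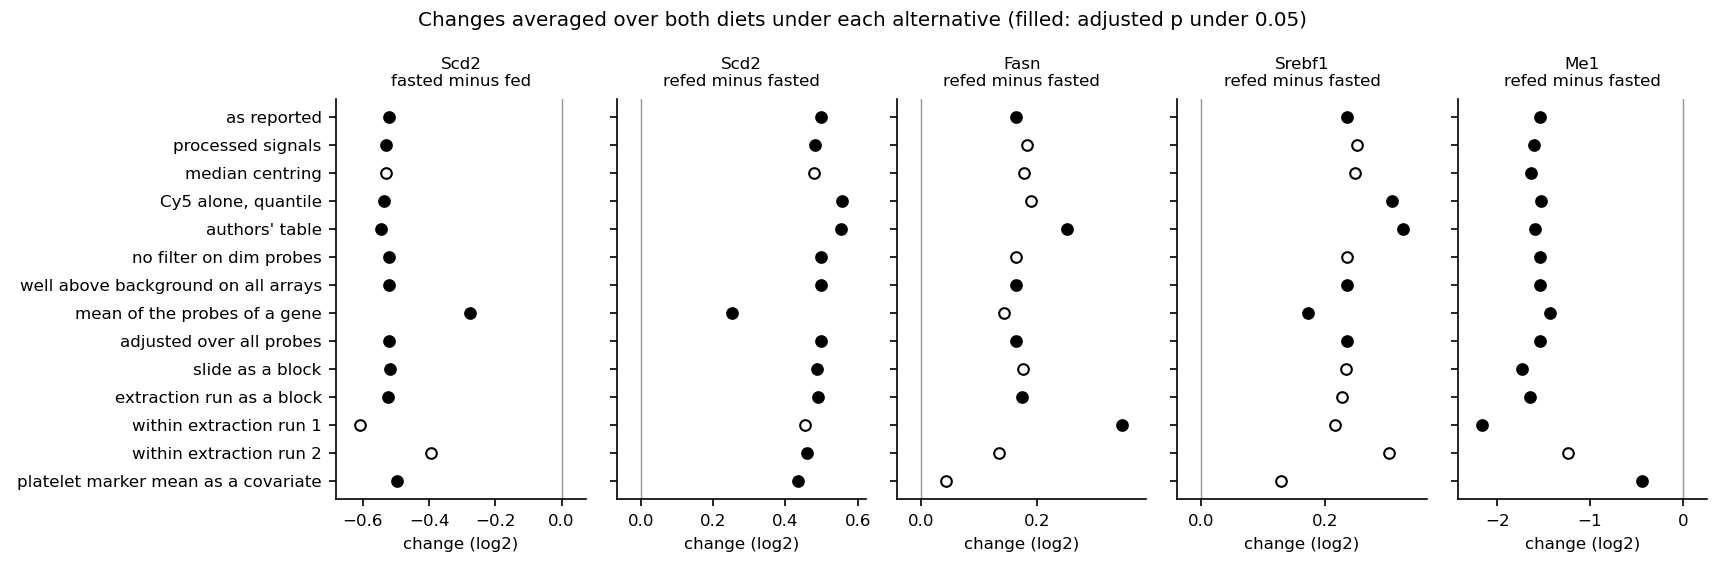
Change averaged over both diets (x axes, log2) for 5 called results under each way of processing (rows), filled where the adjusted p is under 0.05. Every point keeps its side of 0, and the platelet marker covariate moves Me1 to -0.44 and Fasn to 0.043 while Scd2 stays at -0.50 with fasting and 0.44 with refeeding.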

How the data were processed

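RNA of blood mononuclear cells was hybridised in Cy5 beside a Cy3 reference pooled from all groups, with no dye swap, per the labels. The deposited scanner files hold spot intensity and local background in both colours and rn4 probe positions, read by Feature Extraction (Agilent, version 9.5.1.1), per the file headers. The authors' deposited value table holds normalized log2 Cy5 signal (slope 0.985 to 1.02 on log2 scanner signal, column medians 9.37 to 9.76); its normalization is not given in the sources used here. From the scanner files, intensities were corrected with normexp (offset 50) and log2 ratios normalized by loess within arrays in limma 3.58.1 (R 4.3.3). Probes well above background on at least 4 of 29 arrays were kept (28193 of 41012), and each gene took its brightest, for 24228 genes. All 6 groups entered 1 limma fit with 14 comparisons, 2-sided, Benjamini-Hochberg adjusted within each. The fit was tested on simulated data. Correlations used 100000 permutations, 2-sided. The 10 genes and the lists were chosen with earlier results of these data known. All 10 genes are named, with up to 4 called genes of each pathway list per comparison, those of largest change, and the 3 most similar genes by r, which for Fasn are not reported here. The number of arrays limits the precision. Alternatives were other normalizations, filters, probe rules, batches, the platelet covariate and leaving out arrays.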

Additional observations from a re-analysis of the deposited data

Results flagged for a closer look

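In 2 of 60 sets of values, each 1 gene in 1 group of 4 or 5 rats, 1 rat's value lay apart from the others of its group by Dixon's criterion, which chance reaches in about 1 of 20 sets. Both were in Thrsp, whose probe was above background on 12 of 29 arrays. Control refed rat 3 was at -0.29, and its nearest neighbour was at -0.039. Cafeteria fasted rat 8 was at -0.17, and its nearest neighbour was at -0.0018. Thrsp passed no comparison with these rats included.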

How the results depend on the processing

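The 11 called changes of Scd2, Fasn, Srebf1 and Me1 kept their sign in all 462 alternative values and stayed called in 354. Of 129 uncalled changes, 21 of 5450 alternative values became called and 253 changed sign. Counts of called genes among the 10 follow for the settings that changed them, in the order cafeteria, control and mean of both diets. Fasting called 1, 1 and 1 gene as reported. It called 0, 0 and 0 with median centring and within either run, 0, 0 and 2 with Cy5 alone, 0, 0 and 1 with the authors' table and the slide block, and 0, 1 and 1 with the run block. Control fasting called 0 with processed signals, with no filter, over all probes and with the platelet covariate, and the mean called 2 with probes averaged and with probes above background on all arrays. Refeeding called 1, 3 and 4 as reported. It called 0, 1 and 1 with median centring, 1, 2 and 2 with processed signals, 1, 4 and 2 with the slide block, 1, 4 and 3 with probes averaged, 1, 3 and 3 with the run block and with Cy5 alone (where Srebf1 was called in control rats and Fasn was not), 1, 3 and 2 with no filter, 0, 5 and 4 with the authors' table, 0, 1 and 2 within run 1, 0, 0 and 1 within run 2, and 1, 0 and 2 with the platelet covariate. With probes averaged, the diet called 1 gene in refed rats and 1 over 3 conditions, Elovl6 (-0.49, adjusted p = 0.0448, and -0.26, adjusted p = 0.0146). Without 1 array, fasting called 0 to 1, 0 to 2 and 1 to 2, and refeeding 0 to 1, 2 to 4 and 2 to 4. With group means kept, 2 genes passed with Srebf1 (0 as reported) and 5 with platelets (2 as reported), and 5 passed with platelets within run 1. With platelets, Thrsp was at r = 0.71 within run 2 (adjusted p = 0.0122) and -0.63 within run 1 (adjusted p = 0.0303), against -0.0013 over both. The cause of these shifts was not tested, and correlation p values within a run may be too small, as said with Me1. Median centring also cut calls over all genes in mean refeeding to 851, against 3270. With the authors' table the median of all genes was 0.15 in control refeeding, beside which Srebf1 was at 0.50 and Acly at 0.33, 0.13 in control refed against fed and cafeteria against control fed rats, and -0.15 in the refeeding interaction. With median centring it was 0.10 in cafeteria against control refed rats.

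Calls ended without these single arrays, named by group and rat number. For Scd2 with fasting in control rats: cafeteria refed rat 9, cafeteria fasted rat 8, cafeteria fed rat 4, control refed rat 9, control fasted rats 2, 8, 11 and 14 and control fed rats 1, 4, 7 and 13 (-0.61 to -0.51, adjusted p = 0.05001 to 0.132). In cafeteria rats: cafeteria fasted rats 5, 8, 11 and 14 and cafeteria fed rats 1, 7 and 13 (-0.49 to -0.40, adjusted p = 0.0631 to 0.119). For Scd2 with refeeding in cafeteria rats: cafeteria refed rats 6 and 15 and cafeteria fasted rats 5, 8 and 11 (0.43 to 0.50, adjusted p = 0.0502 to 0.0605). For Fasn with refeeding in control rats: control refed rats 3, 6 and 9 and control fasted rats 8 and 14 (0.23 to 0.24, adjusted p = 0.0677 to 0.0869), and on average: cafeteria refed rats 3 and 6, cafeteria fasted rats 2, 5 and 11, control refed rats 3, 6, 9 and 15 and control fasted rats 2, 8 and 14 (0.14 to 0.17, adjusted p = 0.0510 to 0.0881). For Srebf1 with refeeding on average: cafeteria refed rats 6 and 15, cafeteria fasted rats 2, 5, 8 and 11, control refed rats 6, 9 and 15 and control fasted rats 5, 8 and 14 (0.21 to 0.24, adjusted p = 0.0544 to 0.0795). Calls appeared for Srebf1 with fasting on average without cafeteria refed rats 6, 9 and 15, cafeteria fed rat 10 and control fed rat 1 (-0.31 to -0.27, adjusted p = 0.0241 to 0.0498) and in control rats without cafeteria fed rat 1 (-0.44, adjusted p = 0.0482), with refeeding in control rats without control fed 7 and cafeteria fed 1 (0.31, adjusted p = 0.0287 and 0.0329), for Fasn with fasting on average without cafeteria fasted rat 14 (-0.20, adjusted p = 0.0291) and for Acly with refeeding in control rats without cafeteria fed rat 7 and control fasted rat 14 (0.22 to 0.26, adjusted p = 0.0390 to 0.0464).

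Rat numbers are shared by cafeteria and control groups. Same-numbered rats did not deviate together (14 pairs, r = -0.15 to 0.21, 2 over 0.1, 3 best with their own number), and with the replicate block the count stayed at 0 of 10 in all 4 diet comparisons and both interactions. The depth of signal limits Thrsp, above background on 12 of 29 arrays.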

Other observations

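Some single marker genes of other cell types, picked after their values were seen, moved with feeding or diet. They are examples, and markers of other lists, among them Ttr, Rhag, Ahsp and Cd28, were also called. Platelet markers made up most marker calls. All those kept were called lower with refeeding on chow, where 6.01% of all genes were, with Treml1 changing most (-1.95 ± 0.39, adjusted p = 0.00245). All but Thbs1 were called lower with refeeding on average, where 7.53% of all genes were. Such falls were not called in cafeteria rats. Cfd, an adipocyte and myeloid protease that was above background on all 29 arrays, changed by 0.89 ± 0.24 with fasting on average (adjusted p = 0.0342) and by -0.74 ± 0.24 with refeeding (adjusted p = 0.0375). Prdm1, the plasma cell regulator, changed by 0.59 ± 0.16 with fasting on average (adjusted p = 0.0300) and by -0.71 ± 0.15 with refeeding (adjusted p = 0.00231). Camp, a neutrophil granule peptide, was higher on the cafeteria diet over the 3 conditions by 0.80 ± 0.19 (adjusted p = 0.0169). Each was the only called marker of its list, of 3 adipocyte, 6 plasma cell and 9 neutrophil markers kept. Over all genes, 1.84% were called higher with fasting on average, 7.53% lower with refeeding and 0.797% higher on the diet. The plasma cell marker mean was -0.20 ± 0.47 in cafeteria fed and -0.42 ± 0.29 in cafeteria fasted rats. On chow it was -0.014 ± 0.46 in fed and 0.21 ± 1.08 in fasted rats. That control fasted mean rests on rat 2, at 2.05, while the other rats of the group were at 0.22, -0.095, -0.42 and -0.69. Fasting and refeeding share the fasted rats.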
